A study of Saccharomyces cerevisiae Sigma1278b with 62 samples.

Results

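The 30 enzymes described here carry glucose to pyruvate, ethanol, acetate and glycerol in Saccharomyces cerevisiae. They were chosen by their known function, as 30 ORFs among the 5563 nuclear ORFs of the count tables, and not by any measured change. Earlier results of these data were known when they were chosen. They comprise the 3 glucose-phosphorylating enzymes, 5 enzymes of upper glycolysis, 9 of lower glycolysis, 3 pyruvate decarboxylases, 3 alcohol dehydrogenases, 3 aldehyde dehydrogenases and 4 enzymes that make glycerol. The study asked how mRNA translation depends on Asc1, the yeast RACK1 protein that sits near the mRNA exit channel of the small ribosomal subunit. Ribosome footprints (FP), the mRNA pieces that ribosomes protect from nuclease, and fragments of total RNA were sequenced from the same cell extracts. Translational efficiency (TE) is the ratio of the FP level to the total RNA level of a gene.

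All strains were yeast of the Sigma1278b background, grown to mid log phase in glucose at 30 °C and treated with cycloheximide, which stalls elongating ribosomes, before lysis. Rich medium held either 2% glucose (YPAD) or 3% glycerol (YPAG). In glucose, wild type (WT, strain YWG25 in both replicates) was compared with asc1-M1X and with asc1Δ. In asc1-M1X the start codon is mutated while the gene and the SNR24 snoRNA in its intron are kept. The strain asc1Δ lacks the whole gene and SNR24 with it. The same WT libraries were also the reference for the ribosome-binding point mutant asc1-D109Y and for deletion of 1 of the 2 gene copies of a large-subunit protein (rpl23bΔ) or of a stalk protein gene (rpp1aΔ). The ribosome-binding mutant asc1-DE had its own WT, another harvest (cells cooled on ice and lysed at once) and 3′ capture by poly(A) tailing. The small-subunit deletions rps0bΔ and rps16bΔ came from a deletion collection with its own WT and another reverse transcriptase (AMV). WT and asc1-M1X were also profiled in glycerol. By the study's description these cells had been moved from glucose medium some hours earlier and were taken shortly before WT resumed rapid growth, so they were adapting to glycerol rather than in steady growth on it. Total RNA of WT and asc1-M1X in glucose was prepared again with rRNA depletion (Ribo-Zero) in place of poly(A) selection. Each group had 2 libraries of each type. The mutants of the main set were 2 isolates each, while asc1-DE, rps0bΔ, rps16bΔ and the collection WT were 1 strain each, so part of the replicate spread is that of 1 strain. The glucose and the glycerol cultures were separate experiments, so the medium, the transfer and the experiment cannot be told apart. Below, on glycerol means these cells.

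Glycolysis phosphorylates glucose, splits the hexose into trioses and oxidises these to pyruvate, with a net gain of ATP. Budding yeast ferments when glucose is plentiful: pyruvate decarboxylase and alcohol dehydrogenase turn pyruvate into ethanol and regenerate NAD+, and respiration is repressed. On glycerol the cells respire. Many steps have several isozymes, and members of a pair often differ in whether glucose induces or represses them.

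Counted reads per library ranged from 1713047 to 15322986 with a median of 7160678 over 56 libraries. The lowest 3 were total RNA libraries of the poly(A)-tailed set. The altered genes were checked first. ASC1 had 30475 and 33792 FP reads in WT. Its FP reads dropped to 249 and 179 with the start codon mutated (asc1-M1X) and to 165 and 66 with the gene deleted (asc1Δ), and its total RNA was near 0 only in asc1Δ (61 and 145 reads). The 2 mutant Ribo-Zero libraries are titled as the null strain (asc1Δ), but their descriptions and strain numbers are those of asc1-M1X, and they were grouped as asc1-M1X. They had 5576 and 6761 ASC1 reads, against 11808 and 8931 in the WT Ribo-Zero libraries. These are raw reads from libraries of unequal depth. Scaled to CPM, ASC1 had 1404 and 1512 in the mutant and 4052 and 4433 in WT (log2 -1.53). The ASC1 mRNA was thus present in asc1-M1X but at a lower level. In glycerol ASC1 had 6361 and 10783 FP reads in WT and 90 and 137 in asc1-M1X. RPL23B had 88 and 45 FP reads in its deletion, RPP1A 83 and 19, RPS0B 112 and 84, and RPS16B 38 and 67, against 10127 or more in every matched WT library. All p-values below come from edgeR quasi-likelihood tests over all genes, adjusted by Benjamini-Hochberg, with 0.05 as the threshold. They set each change against the spread within these pairs of libraries, pooled over the groups of a fit and moderated across genes. Levels are CPM (counts scaled to a common library total, with TMM factors), and since CPM is a share of a library, less of an mRNA per cell and more of the other mRNAs cannot be told apart.

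In WT on glucose the members were among the most translated genes. Of the 4616 genes with at least 128 reads in both library types, 29 members remained and PDC6 (YGR087C), a minor pyruvate decarboxylase, did not. By FP reads per kilobase, 9 members were in the top 20 and 11 in the top 100. TDH3 (YGR192C), the main glyceraldehyde-3-phosphate dehydrogenase, had 21190 and 18550 FP CPM per kilobase and ranked 2. PDC1 (YLR044C), the main pyruvate decarboxylase, had 15660 and 15280 and ranked 3. At the other end PYK2 (YOR347C), the second pyruvate kinase, had 14.81 and 11.63 and ranked 4111. The span from the lowest to the highest of the 29 was 1500-fold. The ratio of FP to total RNA was above the median of all genes for 27 of the 29 members, with a median of 1.49 for the members and 0.694 for all genes. Only uniquely mapping reads were counted, so levels of near-identical isozymes (TDH1, TDH2 and TDH3, ENO1 and ENO2, HXK1 and HXK2, PDC1 and PDC5, and ADH1 with ADH2) are uncertain.

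Member genes took 13.7% and 12.7% of the FP reads in WT on glucose (95% Wilson intervals 13.7 to 13.75 and 12.71 to 12.76, which cover counting error only). They took 11.8% and 11.7% in asc1-M1X, 10.5% and 10.3% in rpl23bΔ, and 10.6% and 10.1% in rpp1aΔ, all below both WT libraries. In glycerol the order was the other way round, with 6.46% and 5.31% in WT and 9.28% and 9.10% in asc1-M1X. The total RNA shares had the same order: 8.45% and 8.02% in WT and 6.59% and 6.45% in asc1-M1X on glucose, against 3.05% and 2.38% in WT and 4.27% and 3.89% in asc1-M1X on glycerol. No test across samples was made of these shares.

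**Figure D1:**
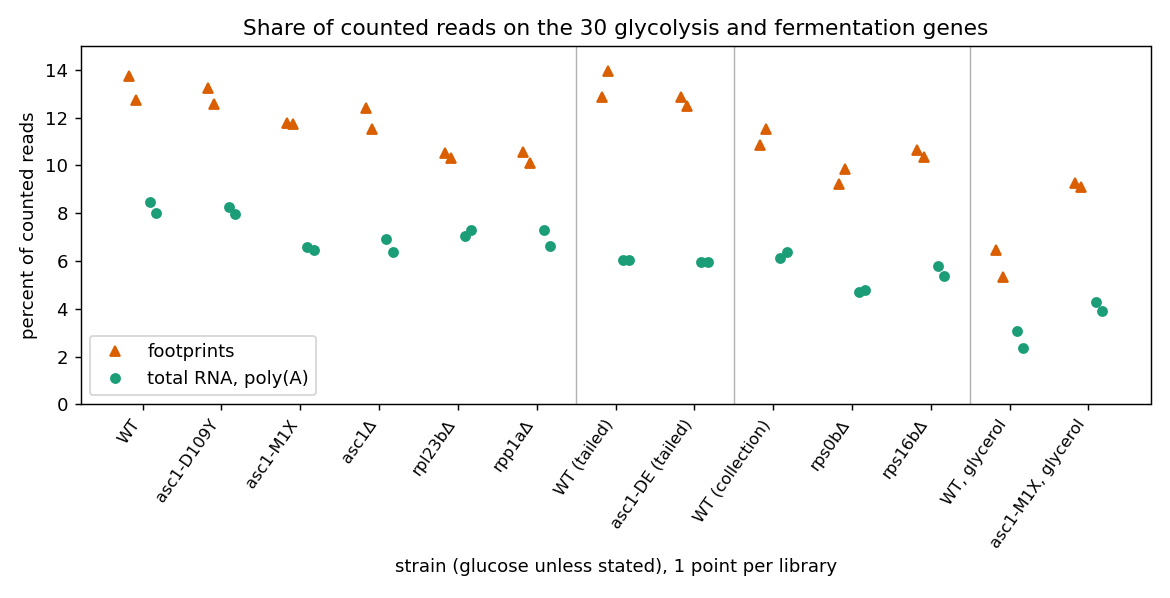
Share of the counted reads of each library, in percent, that fell on the 30 member genes, by strain and medium for FP and total RNA; each point is 1 library. On glucose both asc1-M1X FP libraries (11.8% and 11.7%) lay below both WT libraries (13.7% and 12.7%), and on glycerol both lay above (9.28% and 9.10% against 6.46% and 5.31%).

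Loss of Asc1 in glucose raised several minor isozymes and lowered the main fermentative enzymes. Of 29 members tested in asc1-M1X, FP levels rose for 14 and fell for 14, with a median log2 change of 0.09. Over all 4947 genes tested, 26.8% rose and 25.4% fell, so 28 of the 29 members passed the test. In total RNA 9 members rose and 19 fell (all genes 18.3% and 17.7%), with a median of -0.37. FP levels rose for 2 and fell for 1 of the 3 glucose-phosphorylating enzymes, rose for 2 and fell for 2 of 5 in upper glycolysis, and rose for 4 and fell for 5 of 9 in lower glycolysis. PDC5 (YLR134W), a further pyruvate decarboxylase, overlapped between the strains in FP, with 35.32 and 44.5 CPM in WT and 44.38 and 57.44 in asc1-M1X.

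The first step of the pathway showed the widest change. HXK1 (YFR053C), the hexokinase repressed by glucose, had 43.74 and 46.14 FP CPM in WT and 311.6 and 345.4 in asc1-M1X. Both mutant libraries were far above both WT libraries, by 7.36-fold (log2 2.88, SE 0.075, adjusted p = 5.8e-11). GLK1 (YCL040W), the glucokinase, had 416.1 and 379.9 FP CPM in WT against 911.9 and 890.5 (log2 1.19, SE 0.053, adjusted p = 4.9e-09). HXK2 (YGL253W), the main hexokinase on glucose, moved the other way, from 2538 and 2404 to 2067 and 2043 (log2 -0.25, adjusted p = 0.00043). Of the 3 enzymes HXK2 held 85.0% to 85.3% of the FP density (reads per length) in WT and 62.8% to 63.3% in asc1-M1X, while HXK1 went from 1.47% and 1.64% to between 9.57% and 10.6%.

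In lower glycolysis the same split ran between isozymes of 1 reaction. PYK2 rose from 21.19 and 16.64 to 73.74 and 80.28 FP CPM (log2 2.05, SE 0.11, adjusted p = 1.8e-08), while CDC19 (YAL038W), the main pyruvate kinase, fell from 17990 and 16010 to 13150 and 12960 (log2 -0.37). TDH1 (YJL052W), the least used of the 3 glyceraldehyde-3-phosphate dehydrogenases on glucose, rose from 28.71 and 28.87 to 81.02 and 83.81 (log2 1.53, SE 0.083, adjusted p = 1.9e-08), and TDH3 fell from 19270 and 16860 to 11420 and 10810 (log2 -0.69, SE 0.059, adjusted p = 9.2e-07). In each pair the WT and mutant libraries were fully apart. TDH2, the third gene of this reaction, had 2850 and 2256 FP CPM in WT and was also called higher in FP. Not every abundant isozyme fell, therefore. ENO1 (YGR254W), the enolase that is not induced by glucose, rose from 529.1 and 487.4 to 856 and 895.8 (log2 0.80, adjusted p = 1.1e-07), whereas ENO2 (YHR174W), the glucose-induced enolase, fell from 17780 and 16560 to 13340 and 13820 (log2 -0.33, adjusted p = 8.7e-05). Among the abundant enzymes of this stretch, PGK1 (YCR012W, phosphoglycerate kinase) and GPM1 (YKL152C, phosphoglycerate mutase) had log2 FP changes of -0.31 and -0.36, both past the threshold.

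Upper glycolysis changed less. FBA1 (YKL060C, aldolase) fell by 0.30 on the log2 FP scale. TPI1 (YDR050C, triosephosphate isomerase) fell from 6910 and 6238 to 4472 and 4381 FP CPM (log2 -0.56). PGI1 (YBR196C, phosphoglucose isomerase) and PFK2 (YMR205C, the beta subunit of phosphofructokinase) had log2 FP changes of 0.21 and 0.18, both past the threshold, and PFK1 (YGR240C, the alpha subunit) had 0.09, which was not. The total RNA of all 3 fell, PFK2 from 1345 and 1223 to 940.7 and 907.6 CPM (log2 -0.46, adjusted p = 0.00065).

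The enzymes of the branches to ethanol, acetate and glycerol also changed in both directions. ADH1 (YOL086C), the main ethanol-forming alcohol dehydrogenase, fell from 11010 and 9448 to 7048 and 6667 FP CPM (log2 -0.56, adjusted p = 1e-05), and PDC1 fell from 25090 and 24480 to 20080 and 20880 (log2 -0.26, adjusted p = 0.00022). ALD6 (YPL061W), the cytosolic acetaldehyde dehydrogenase, fell from 2393 and 2383 to 1539 and 1530 in FP (log2 -0.63, adjusted p = 1.2e-07) and from 1641 and 1568 to 761.2 and 730.2 in total RNA (log2 -1.09, adjusted p = 3.1e-06). ALD4 (YOR374W), the main mitochondrial acetaldehyde dehydrogenase, rose from 106.3 and 106.1 to 204.5 and 196.3 in FP (log2 0.93, SE 0.06, adjusted p = 9.2e-08). GPP2 (YER062C), a glycerol-3-phosphate phosphatase, rose from 35.93 and 38.7 to 70.9 and 68.51 (log2 0.91), and its paralog GPP1 (YIL053W) fell from 1111 and 1117 to 851.2 and 886.5 (log2 -0.35). Again every pair of WT and mutant libraries named in this paragraph was apart.

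TE calls went in 1 direction in the main fit, which did not pair the FP and total RNA of 1 extract. TE rose for 13 of 29 members in asc1-M1X and fell for none, while 11.2% of all genes rose and 8.91% fell, and the member median was 0.26. With FP and total RNA of each extract paired as a block, TE rose for 19 and fell for 2. Here and below, the share of all genes is not set beside counts from alternative settings. Without asc1-M1X replicate 2 fewer members were called. The largest were GPD1 (YDL022W, the osmotically induced glycerol-3-phosphate dehydrogenase) at 0.78 (adjusted p = 0.00035), ALD5 (YER073W, a mitochondrial aldehyde dehydrogenase) at 0.78 (adjusted p = 1.5e-05), GLK1 at 0.76, HXK1 at 0.73, TDH1 at 0.68 and PFK2 at 0.64. For GPD1, FP levels rose slightly (164.3 and 152.8 CPM in WT, 178 and 175.2 in asc1-M1X) while total RNA fell from 114.4 and 101.1 to 72.73 and 66.58. ALD5 rose in FP (log2 0.53) and fell in total RNA (log2 -0.25). TPI1, TDH3, GPM1 and ADH1, whose FP and total RNA fell together, had log2 TE changes between -0.15 and -0.03, none past the threshold.

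The full deletion was compared with the same WT libraries, so its values are given beside those of asc1-M1X as a description. In asc1Δ FP levels rose for 13 and fell for 13 of 29 members (all genes 24.9% and 23.9%), total RNA rose for 9 and fell for 17 (16.7% and 14.6%), and TE rose for 9 and fell for none (7.2% and 4.82%). Without the TMM scaling the FP split in asc1Δ was 15 up and 10 down. With the replicate block TE rose for 18 members and fell for 2, and without WT replicate 1 it was called for 4. HXK1 had 330.1 and 368.5 FP CPM in asc1Δ (7.80-fold over WT) and TDH3 had 12690 and 10890 (log2 -0.61). PYK2 had 80.45 and 86.63 FP CPM (log2 2.16), and CDC19 had 14270 and 12480 (log2 -0.34, adjusted p = 0.0015). ALD4 had a log2 FP change of 1.05 and ALD6 one of -0.54. The TE of HXK1 and TDH1 rose by 0.63 (adjusted p = 0.012) and 0.64 (adjusted p = 0.044).

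**Figure D2:**
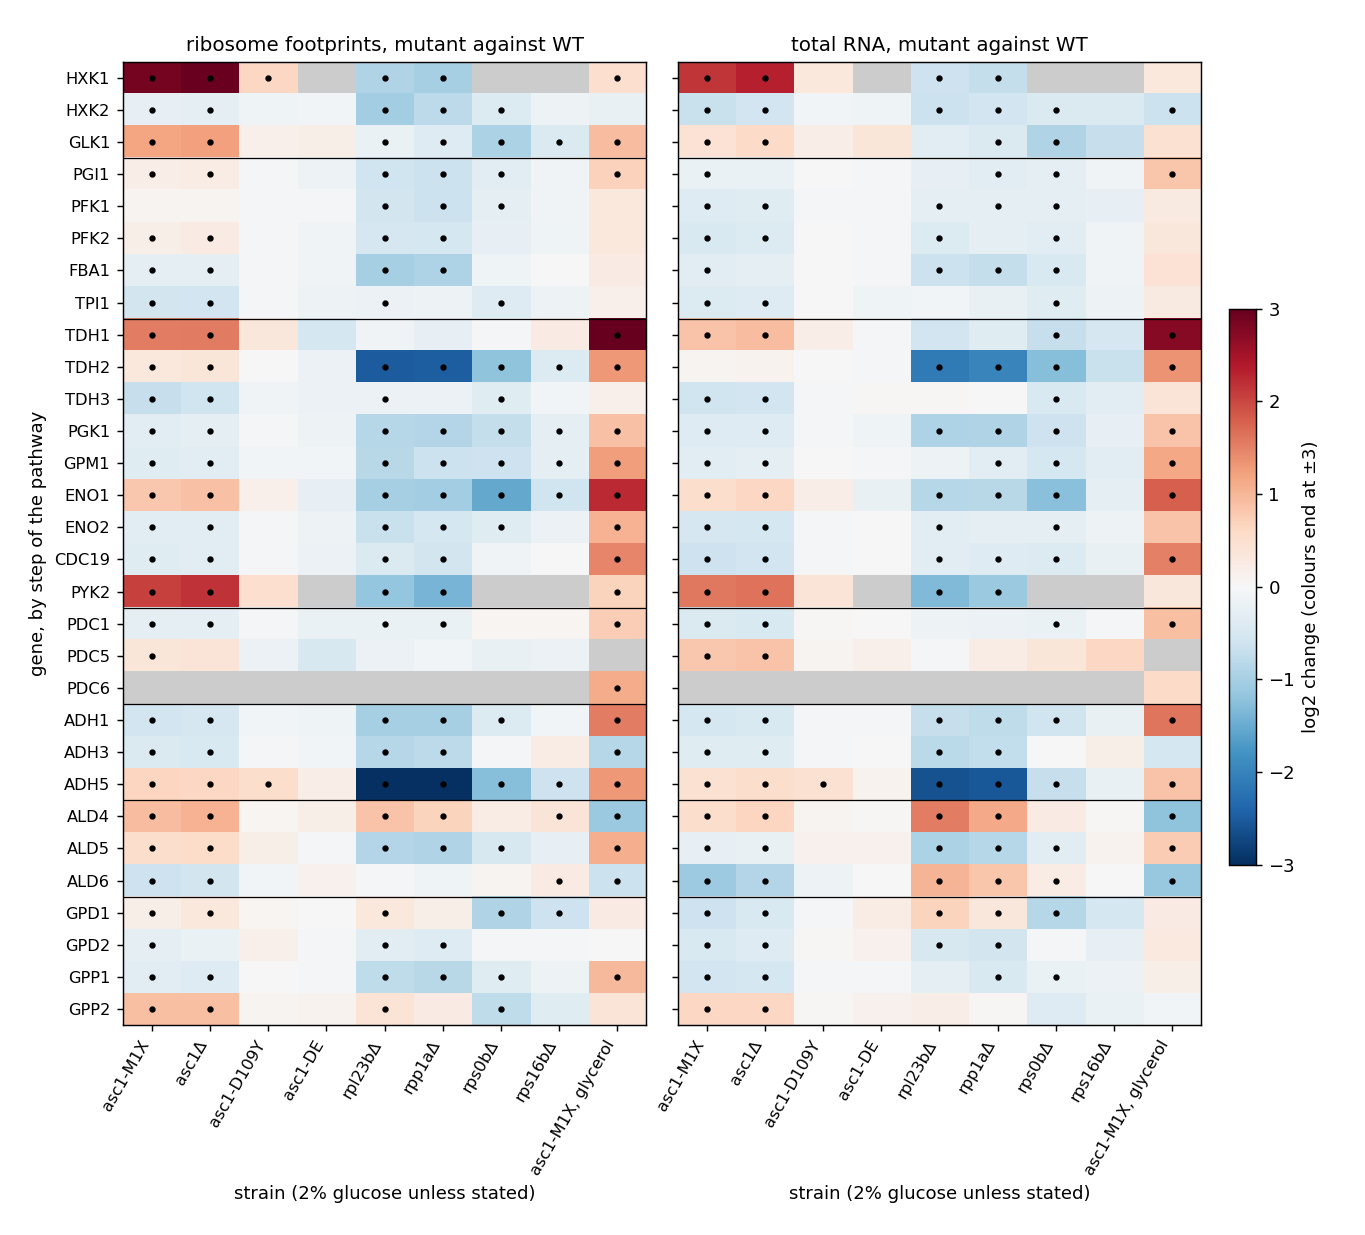
Log2 change of FP (left) and total RNA (right) of the 30 member genes (rows, ordered by step) in each mutant against its own WT (columns); colours end at -3 and 3, dots mark an adjusted p below 0.05 and grey marks genes not tested. The asc1-M1X and asc1Δ columns hold red minor isozymes (HXK1 at 2.88 and 2.96 in FP) beside blue major ones, and the rpl23bΔ, rpp1aΔ and rps0bΔ columns are mostly blue.

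Few members were called in the asc1 point mutants. In asc1-D109Y, 2 of 29 members rose in FP and none fell (0.985% of all genes were called in either direction). HXK1 had 69.49 and 68.91 FP CPM, above both WT libraries (log2 0.62, adjusted p = 0.0016), well short of its level in asc1-M1X. ADH5 (YBR145W), a minor alcohol dehydrogenase, had 135.7 and 128.1 FP CPM against 98.76 and 84.33 in WT (log2 0.54, adjusted p = 0.005). It was the only member called in total RNA (log2 0.45, adjusted p = 0.048, 0.37% of all genes called). With the replicate block the counts became 5 in FP and 5 in total RNA. Without WT replicate 1 they were 4 and 2, and without asc1-D109Y replicate 1 no member was called in total RNA. In TE edgeR called no member and 0% of all genes, 1 member and 129 genes had an unadjusted p under 0.05, and DESeq2 called 0 members.

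In asc1-DE 27 members were tested and edgeR called none in FP, total RNA or TE, where 0.0213%, 0% and 0% of all genes were called. In FP 1 member and 156 of all genes had an unadjusted p under 0.05, in total RNA 0 and 22, and in TE 0 and 33, and DESeq2 called 0 members in each. With the replicate block 2 members fell in FP. The total RNA libraries of this set were among the shallowest, and HXK1, PYK2 and PDC6 did not pass the read minimum in it.

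Most members fell in FP in the ribosomal protein deletions rpl23bΔ, rpp1aΔ and rps0bΔ, and 7 of 27 fell in rps16bΔ. In rpl23bΔ FP levels fell for 23 of 29 members and rose for 3 (all genes 24.8% fell and 24.6% rose), with a median log2 change of -0.59. In total RNA 16 fell and 3 rose (all genes 12.4% and 11.8%), with a median of -0.35. FP levels fell for all 3 glucose-phosphorylating enzymes, all 5 of upper glycolysis, 8 of 9 of lower glycolysis and all 3 alcohol dehydrogenases. In rpp1aΔ, compared with the same WT libraries, FP levels fell for 21 and rose for 1 (20.4% and 21% of all genes) and total RNA fell for 18 and rose for 3 (15.2% and 13%). The member that rose in FP in rpp1aΔ was ALD4.

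ADH5 and TDH2 (YJR009C, the second glyceraldehyde-3-phosphate dehydrogenase) fell most. ADH5 had 98.76 and 84.33 FP CPM in WT, 9.889 and 4.463 in rpl23bΔ and 7.895 and 9.172 in rpp1aΔ. The mutant libraries were all below 10 CPM, at 0.0822 and 0.0927 of the WT level (log2 SE 0.18 and 0.13, adjusted p = 4.5e-11 and 4.8e-07). Its total RNA fell from 137 and 126.8 to 21.84 and 21.35 in rpl23bΔ (log2 -2.60) and to 22.19 and 23.48 in rpp1aΔ (log2 -2.53). TDH2 went from 2850 and 2256 FP CPM to 464.7 and 436.6 in rpl23bΔ (log2 -2.50, adjusted p = 4e-13) and 435 and 483.1 in rpp1aΔ (log2 -2.48, adjusted p = 1e-06). In neither strain did TDH1 pass the threshold in FP, and TDH3 had log2 -0.18 (adjusted p = 0.028) in rpl23bΔ and -0.19 (adjusted p = 0.061) in rpp1aΔ. The TDH3 call in rpl23bΔ rested on the scaling: with library size alone its log2 change was 0.003031. TDH2 held 11.8% to 12.9% of the FP density of the 3 genes in WT and 2.58% to 3.06% in rpp1aΔ.

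HXK1, PYK2 and ENO1, which rose in asc1-M1X, fell in the large-subunit deletions, compared with the same WT libraries. HXK1 had 25.82 and 21.71 FP CPM in rpl23bΔ and 23.59 and 21.22 in rpp1aΔ, below both WT libraries. PYK2 had log2 FP changes of -1.16 and -1.40, and ENO1 was at 0.499 and 0.485 of the WT level. HXK2, FBA1, ENO2, CDC19 and ADH1 fell to 0.484, 0.499, 0.632, 0.735 and 0.499 of the WT FP level in rpl23bΔ.

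The acetate branch differed between its mRNA and its footprints. ALD6 total RNA rose from 1641 and 1568 CPM to 3308 and 3228 in rpl23bΔ (log2 1.03, adjusted p = 6e-05) and to 2922 and 2795 in rpp1aΔ (log2 0.82, adjusted p = 0.00019). Its FP levels were 2393 and 2383 in WT, 2298 and 2340 in rpl23bΔ and 2153 and 2231 in rpp1aΔ, neither past the threshold. TE of ALD6 was therefore lower, by log2 -1.07 (SE 0.1, adjusted p = 6.6e-05) and -0.95 (SE 0.081, adjusted p = 0.00024). ALD4 rose in total RNA (log2 1.53 and 1.13) more than in FP (0.86 and 0.66). TE fell for 4 members in rpl23bΔ and 5 in rpp1aΔ and rose for none, where 2% and 2.56% of all genes fell and 0.613% and 1.31% rose. ALD4, ALD6 and GPP1 were called in both strains. ALD4 in rpp1aΔ was close to the threshold (adjusted p = 0.0495). These TE counts were unstable: without WT replicate 1 they were 1 and 1, without rpl23bΔ replicate 1 the first was 8, and with the replicate block they were 6 and 13. The rpp1aΔ count fell whichever replicate, its FP and total RNA together, was left out.

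In the collection strains, with a WT of their own, rps0bΔ lowered FP of 17 of 27 members and raised none (11.1% and 8.57% of all genes), with a median of -0.36. Total RNA fell for 21 and rose for 1 (12.4% and 12%). ENO1 fell from 315.4 and 331.7 to 129.8 and 93.42 FP CPM (log2 -1.53, SE 0.12, adjusted p = 4.9e-06). ADH5 fell from 63.69 and 66.02 to 24.29 and 29.45 (log2 -1.28, adjusted p = 9.8e-06) and TDH2 from 1622 and 1840 to 790.9 and 714.3 (log2 -1.20, adjusted p = 3.6e-06). GPD1 fell from 110.4 and 104.4 to 62.49 and 52 (log2 -0.90, adjusted p = 0.0001). The mutant and WT libraries of these 4 genes were apart. The 1 member that rose in total RNA was ALD6, from 644.3 and 613.1 to 734.5 and 739.1 CPM (log2 0.23, adjusted p = 0.01). In TE edgeR called no member (1.43% of all genes were called), 5 members and 906 genes had an unadjusted p under 0.05, and DESeq2 called 0 members.

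In rps16bΔ FP levels fell for 7 and rose for 2 of 27 members (4.74% and 3.5% of all genes). GPD1 had 67.68 and 72.44 FP CPM (log2 -0.62, adjusted p = 0.00053), ADH5 44.89 and 39.67 (log2 -0.62, adjusted p = 0.0015) and ENO1 224.8 and 200.7 (log2 -0.61, adjusted p = 0.00038). All 3 lay between their WT and rps0bΔ levels. The count depended on single libraries, with 4 without rps16bΔ replicate 2 and 19 without collection WT replicate 2. In total RNA and TE edgeR called 0 members (0.414% and 0.145% of all genes), with 5 and 4 members, and 522 and 481 genes, at an unadjusted p under 0.05, and DESeq2 called 1 and 0. Without rps16bΔ replicate 2, 15 members were called in total RNA and 1 in TE.

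On glycerol WT cells used other isozymes at several steps. FP levels fell for 20 of 30 members and rose for 9 (36.9% and 41.5% of all genes), with a member median of -1.12 and an all-gene median of 0.05. Total RNA fell for 19 and rose for 6 (44.6% and 42.1%), with medians of -1.57 and -0.07. Total RNA also differed between sets of WT libraries on glucose. For PFK2 it was 1292 and 1181 CPM (without TMM factors) in the main set and 132 and 138 in the collection set, against 97.03 and 75.19 on glycerol. For TPI1 it was 4363 and 4318 in the main set and 6012 and 6298 in the collection set, against 3295 and 2926 on glycerol. HXK2 fell from 2538 and 2404 to 89.65 and 87.27 FP CPM (log2 -4.79, adjusted p = 1.9e-08), and HXK1 rose from 43.74 and 46.14 to 1146 and 1212 (26.4-fold, adjusted p = 3.1e-10). ALD4 rose from 106.3 and 106.1 to 12420 and 9722, a 105-fold change (log2 6.71, SE 0.19, adjusted p = 9.5e-10). Enzymes abundant on glucose fell by unequal amounts, to 2354 and 2061 FP CPM for PDC1 (log2 -3.48), to 2026 and 1059 for ENO2 (log2 -3.47) and to 1823 and 1475 for CDC19 (log2 -3.36). TDH3 fell less, from 19270 and 16860 to 9068 and 5978 (log2 -1.26, SE 0.18), as did PGK1, from 13770 and 12350 to 7351 and 5906 (log2 -0.97, SE 0.13), and FBA1, from 12640 and 11570 to 7782 and 5421 (log2 -0.87, SE 0.16). PDC5 went from 35.32 and 44.5 to 0.9194 and 1.177.

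The change in the shares of isozymes was large. HXK2 held 2.26% and 2.27% of the FP density of its group on glycerol, GLK1 66.1% to 68.8% and HXK1 28.9% to 31.6%. ENO1 went from 2.86% and 2.89% of the enolase FP density to between 42.0% and 50.6%, and ALD4 from 3.33% and 3.36% of the aldehyde dehydrogenase density to between 68.5% and 78.0%. The 2 subunits of phosphofructokinase, PFK1 and PFK2, work in 1 complex and held near-equal shares of FP density, PFK1 having 49.1% to 50.0% in WT on glucose. ADH1 in glycerol is uncertain, since its near-identical copy ADH2 rose by 12.49 on the log2 FP scale.

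On glycerol most enzymes of lower glycolysis had higher FP levels in asc1-M1X than in WT. FP levels rose for 17 of 29 members and fell for 3 (18.7% and 22.5% of all genes), with a median of 0.70. Total RNA rose for 11 and fell for 3 (9.58% and 8.36%), with a median of 0.44. FP levels rose for 8 of 9 members of lower glycolysis, with TDH3 the exception (log2 0.15, adjusted p = 0.62), for 1 of 5 of upper glycolysis (PGI1), for both pyruvate decarboxylases tested and for 2 of 3 alcohol dehydrogenases. TDH1 rose from 169.8 and 154.4 to 1411 and 1369 FP CPM (9.07-fold, SE 0.14 on the log2 scale, adjusted p = 0.0001) and from 59.1 and 58.59 to 367.5 and 390.1 in total RNA (log2 2.73, adjusted p = 1.2e-06). ENO1 rose from 1465 and 1084 to 6163 and 5272 (log2 2.25, SE 0.2, adjusted p = 0.00084). CDC19 rose from 1823 and 1475 to 4586 and 3990 (log2 1.46, adjusted p = 0.0014), and GPM1 from 2439 and 1708 to 4865 and 4526 (log2 1.26, adjusted p = 0.0032).

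ALD4, ADH3 and ALD6 fell in FP. ALD4 had 12420 and 9722 FP CPM in WT on glycerol and 4267 and 5425 in asc1-M1X (log2 -1.11, SE 0.2, adjusted p = 0.0046), and its total RNA fell by 1.22. ADH3 (YMR083W), the mitochondrial alcohol dehydrogenase, fell from 822.4 and 1084 to 531.7 and 457.9 (log2 -0.86, adjusted p = 0.0058), and ALD6 from 3324 and 4244 to 2431 and 2148 (log2 -0.64, adjusted p = 0.017). The libraries of the strains did not overlap for these 3 genes. HXK2 fell in total RNA, from 33.45 and 43.08 to 19.78 and 27.85 CPM (log2 -0.64, adjusted p = 0.047), and overlapped in FP. GPP1 passed the threshold narrowly in the other direction (log2 0.96, adjusted p = 0.0495), with 96.39 and 45.99 CPM in WT and 148.5 and 112 in asc1-M1X. In TE edgeR called no member (0.216% of all genes were called), 3 members and 661 genes had an unadjusted p under 0.05, and DESeq2 called 0. With the replicate block 5 members rose in TE.

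**Figure D3:**
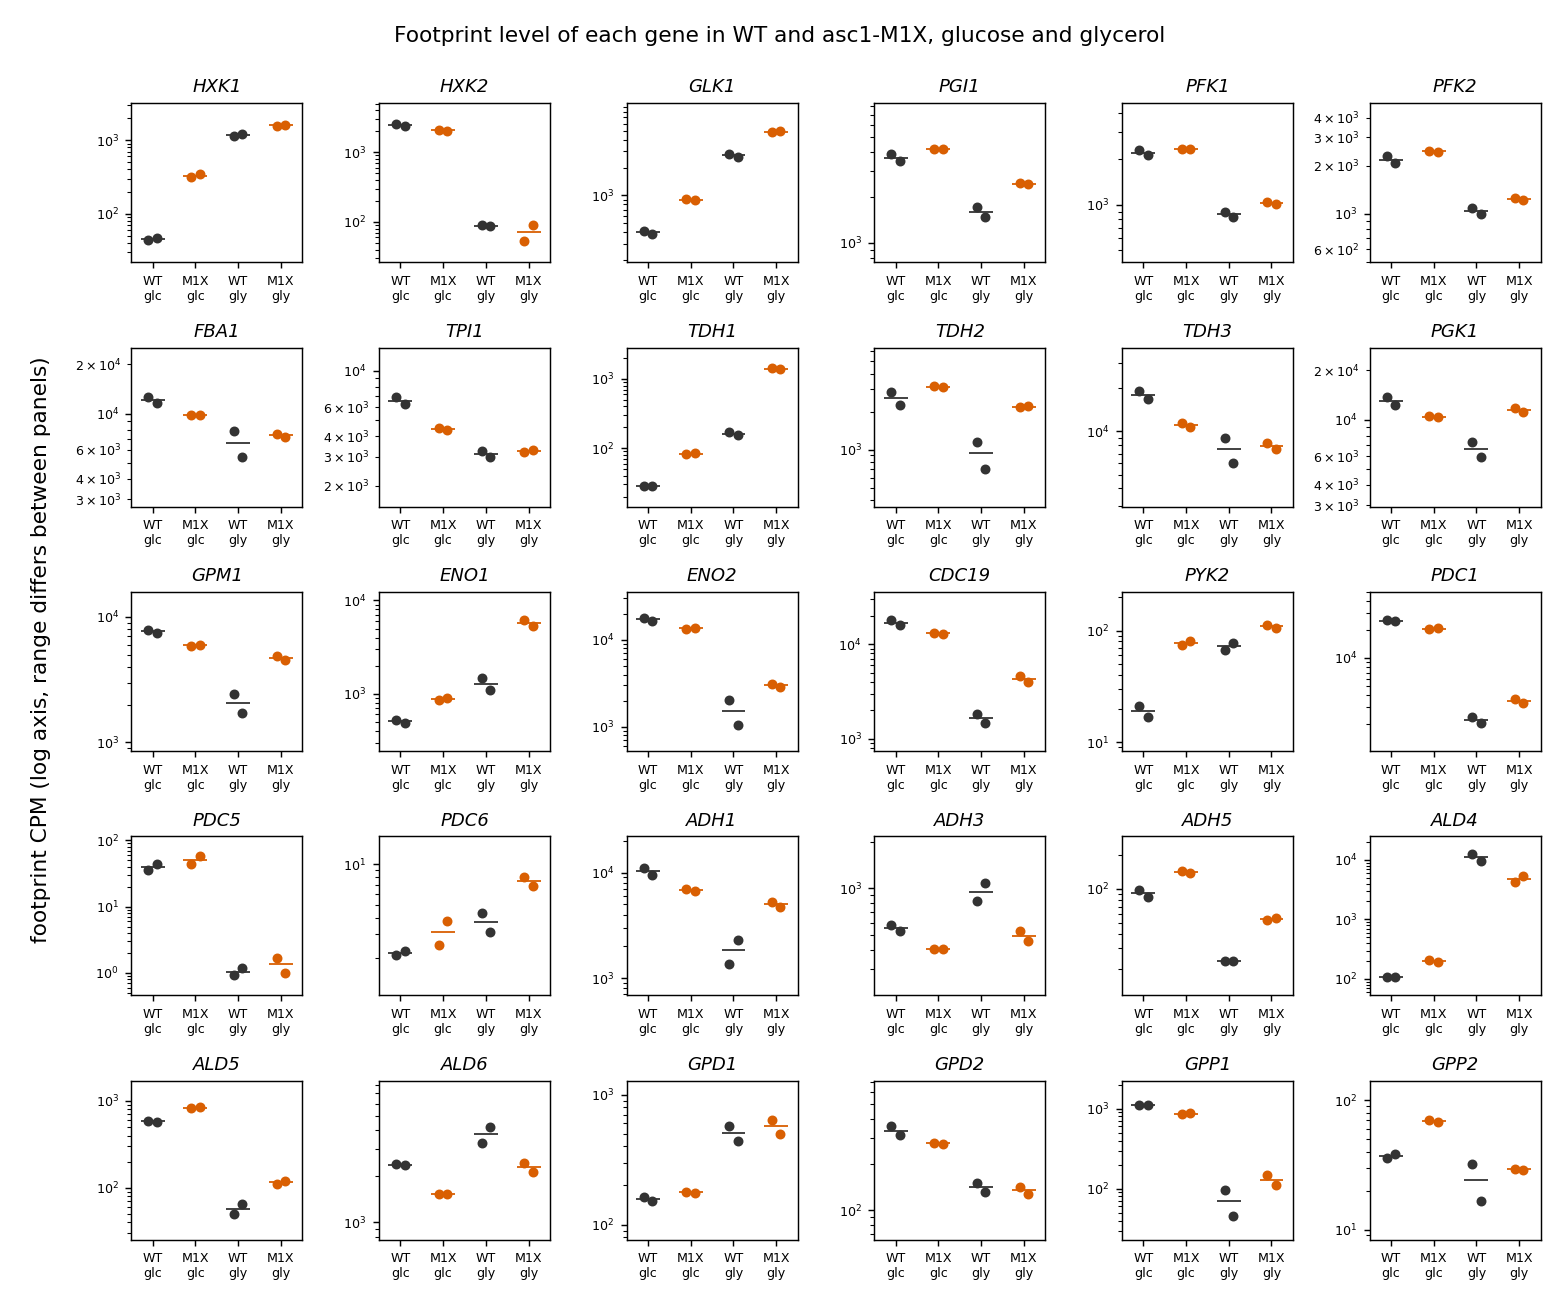
FP level (CPM, log axis whose range differs between panels) in WT and asc1-M1X on glucose and on glycerol, 1 panel per gene; each point is 1 library. TDH1 and ENO1 were higher in asc1-M1X in both media, CDC19 and GPM1 were lower on glucose and higher on glycerol, and ALD4 was higher on glucose and lower on glycerol.

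Set side by side, PGK1, GPM1, ENO2, CDC19, PDC1, ADH1 and GPP1 were down in asc1-M1X FP on glucose and up on glycerol, ADH3 and ALD6 were down in both, and ALD4 was up on glucose and down on glycerol. The difference of the strain effect between media was tested as an interaction. In FP the glycerol effect exceeded the glucose effect for 14 of 30 members and was below it for 3 (7.19% and 20.1% of all genes), with a member median of 0.48 and an all-gene median of -0.12. In total RNA it was above for 17 and below for 4 (5.81% and 5.71%), with medians of 0.80 and 0.02. The largest positive values in FP were those of ADH1 (2.02), CDC19 (1.76), TDH1 (1.58) and GPM1 (1.55), and the negative ones those of HXK1 (-2.44), ALD4 (-2.11) and PYK2 (-1.45). The ADH1 value rests on its glycerol level, which is uncertain because of ADH2. HXK1 was 7.36-fold higher in the mutant on glucose and 1.43-fold higher on glycerol, where WT itself had 1146 and 1212 FP CPM. The counts without asc1-M1X glucose replicate 2 were 10 in FP, and without asc1-M1X glucose replicate 1 they were 10 in total RNA. No interaction in TE passed the threshold among members by edgeR (0.711% of all genes passed), 8 members and 762 genes had an unadjusted p under 0.05, DESeq2 called 0, and with the replicate block 7 members were below 0.

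The medium was also compared within asc1-M1X. FP levels fell for 17 and rose for 9 of 30 members (38.4% and 41.1% of all genes), with a median of -0.47, and total RNA fell for 15 and rose for 7 (42.9% and 42.8%), with a median of -0.45. HXK2 had a log2 FP change of -4.83 (-4.79 in WT). CDC19 fell from 13150 and 12960 to 4586 and 3990 FP CPM (log2 -1.60, against -3.36 in WT), and ENO2 had a log2 change of -2.17. TE rose for 12 members and fell for 7 (37.5% and 37.8% of all genes), and with library size alone the split was 17 and 5. On glycerol ENO1 held 64.8% to 66.4% of the enolase FP density in the mutant and TDH1 11.9% to 12.4% of its group, against 1.63% to 2.26% in WT.

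TE also differed between the media. In WT TE rose for 15 of 30 members and fell for 6 (42.5% and 32.7% of all genes), with a member median of 0.49 and an all-gene median of 0.19. GPD1 rose by 2.75 (SE 0.22, adjusted p = 3.3e-08): its FP levels went from 164.3 and 152.8 to 574.7 and 439.1 CPM while total RNA went from 114.4 and 101.1 to 54.79 and 50.44. PFK2 rose by 2.74 (SE 0.15, adjusted p = 1.2e-09), with FP levels of 1091 and 994.9 on glycerol and total RNA of 104.3 and 85.53. GLK1 rose by 2.71, since its FP levels rose from 416.1 and 379.9 to 2815 and 2617 and its total RNA did not pass the threshold (395.9 and 322.4 against 392.8 and 375.6). PGI1 (2.38), GPD2 (YOL059W, the second glycerol-3-phosphate dehydrogenase, 2.26), HXK1 (2.07), PYK2 (2.00) and PFK1 (1.92) followed. TE fell for PDC6 (-2.52), PDC5 (-2.51), GPP2 (-2.22), GPP1 (-2.04), GPM1 (-0.72) and TPI1 (-0.64). The PDC6 and PDC5 values rest on levels near the floor. PDC6 did not reach the read minimum in WT on glucose, with total RNA of 1.344 and 0.8868 CPM. PDC5 had 0.9054 and 1.158 FP CPM on glycerol (these CPM without TMM factors).

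The ratio of FP to total RNA, here from CPM scaled to library totals without TMM factors, also differed between WT cultures on glucose prepared in different ways. It was compared after seeing the data and set side by side with no test. For GLK1 it was 0.853 with Ribo-Zero RNA, 1.04 in the main set, 1.62 in the poly(A)-tailed set and 7.12 in the collection set, against 7.69 on glycerol. For PFK2 it was 0.879, 1.60, 3.03 and 14.0, against 11.9 on glycerol, and for PGI1 1.13, 1.66, 3.10 and 6.98, against 9.67. In the same order TPI1 had 1.37, 1.37, 1.05 and 0.869, against 0.988, and GPP1 had 1.01, 1.20, 1.44 and 1.03, against 0.331. The 15 members whose TE rose on glycerol were longer ORFs (median 1503 nt, range 999 to 2964) than the 6 whose TE fell (median 753 nt, range 744 to 1692). The poly(A) selection, harvest and reverse transcriptase of these sets differ as given above. Their part in the total RNA and TE values was not tested.

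**Figure D4:**
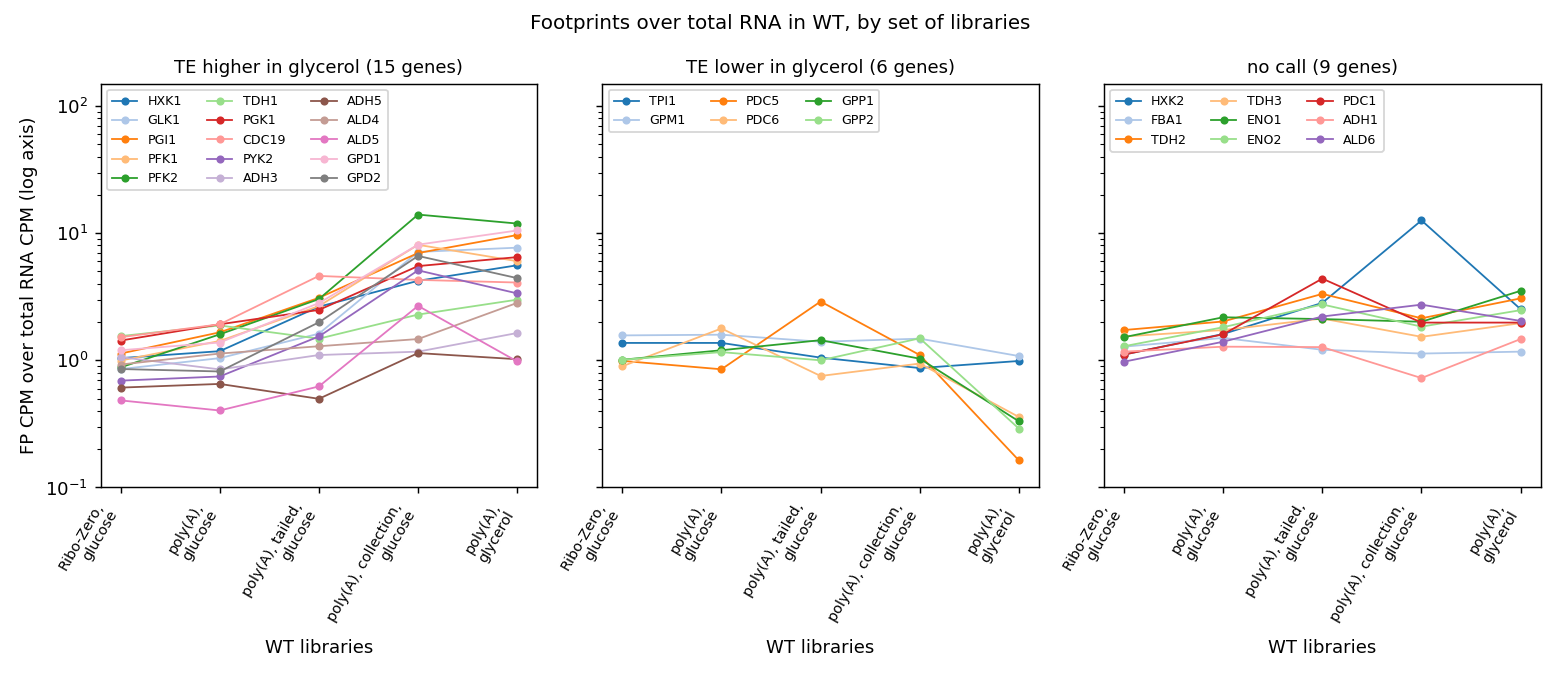
Ratio of FP CPM to total RNA CPM (log axis, CPM without TMM factors) in WT in each set of libraries, 4 of them on glucose and 1 on glycerol. Lines join the values of 1 gene over sets that have no order, and the panels hold members whose TE rose, fell or was not called on glycerol. GLK1 (7.12 and 7.69) and PFK2 (14.0 and 11.9) were about as high in the glucose collection set as on glycerol.

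The asc1-M1X result in glucose differed between poly(A) and Ribo-Zero total RNA. With Ribo-Zero RNA, 12 of 29 members rose and 14 fell in total RNA (19.1% and 18.3% of all genes), with a median of -0.10 against -0.37 with poly(A) RNA. PGI1 and PFK2 were called lower with poly(A) RNA and higher with Ribo-Zero RNA. PFK2 had 2378 and 2239 CPM in WT and 2485 and 2561 in asc1-M1X with Ribo-Zero (log2 0.13, adjusted p = 0.0077). GPD1 overlapped between strains with Ribo-Zero (125.6 and 120.6 CPM in WT, 116.8 and 124.8 in asc1-M1X, adjusted p = 0.87), where poly(A) RNA had fallen. HXK1 rose with both, to 230.9 and 272.8 from 38.43 and 42.19 CPM with Ribo-Zero (log2 2.66).

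With the same FP libraries over Ribo-Zero RNA, TE rose for 5 members and fell for 1 (4.87% and 4.48% of all genes), with a median of 0.05 against 0.26. The 5 were ALD5 (0.64, adjusted p = 3.1e-07), ALD4 (0.35, adjusted p = 0.028), GLK1 (0.32, adjusted p = 0.0087), GPP1 (0.26, adjusted p = 0.013) and ALD6 (0.20, adjusted p = 0.046), and PDC5 fell (-0.73, adjusted p = 0.01). The members called with poly(A) RNA but not here had log2 TE changes of -0.07 to 0.22 with Ribo-Zero RNA. Only 1 of the 6 calls was left without asc1-M1X glucose replicate 1, and DESeq2 made 3. The difference of the strain effect between the RNA selections, a test chosen after seeing the data, passed the threshold for 6 of 29 members, where 0.949% of all genes did. These were PFK2 (0.60, adjusted p = 0.001), GPD1 (0.59, adjusted p = 0.024), PFK1 (0.44, adjusted p = 0.0026), HXK2 (0.36, adjusted p = 0.018), PGI1 (0.36, adjusted p = 0.024) and CDC19 (0.33, adjusted p = 0.048), each higher with Ribo-Zero. The count was 11 with the replicate block, 10 with DESeq2, 1 without asc1-M1X Ribo-Zero replicate 2 and 14 without WT poly(A) replicate 2.

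**Figure D5:**
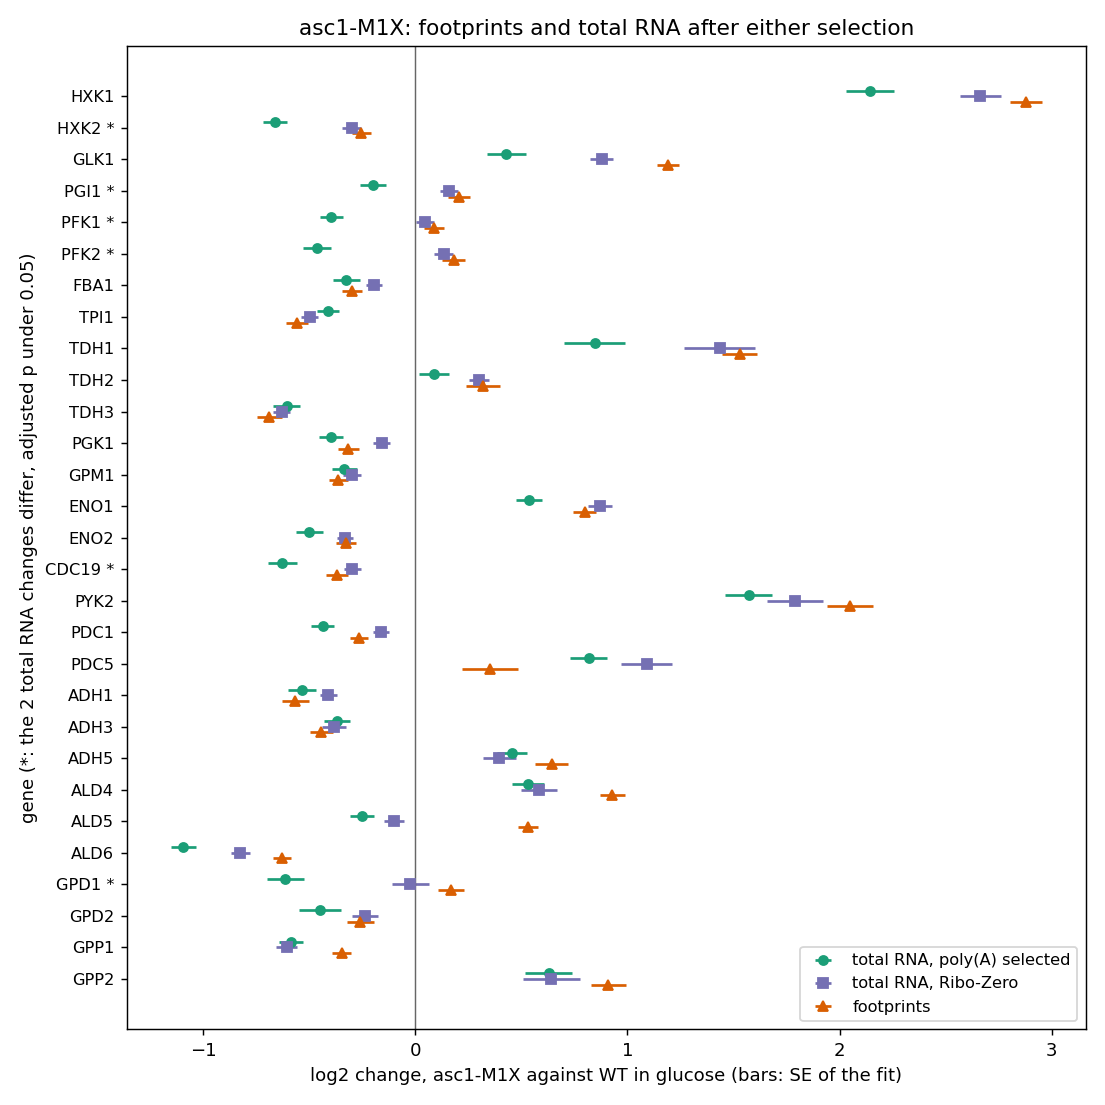
Log2 change in asc1-M1X against WT on glucose (x axis, bars are the SE of the fit) of FP and of total RNA after poly(A) selection or Ribo-Zero for each of the 29 members tested (y axis); an asterisk marks genes whose total RNA changes differ at an adjusted p below 0.05. The poly(A) point lies left of the Ribo-Zero point for PFK2 (-0.46 and 0.13) and GPD1 (-0.61 and -0.02), and HXK1 (2.15 and 2.66) is the highest in both.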

How the data were processed

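Of 62 samples, 56 had a column in the 4 count tables (26 FP and 30 total RNA libraries of 9 genotypes in 5 sets). The other 6 repeat the preparation of replicate 1 and were not analysed separately. The deposited values are raw counts of uniquely mapped reads per ORF, made by the authors without the first 30 codons. TopHat and DESeq are named in the submitters' processing notes, and versions are not given in the sources used here. Deposited RPKM and scaled counts were not used, nor were the authors' tables of log2 fold changes of FP, total RNA and TE against WT. Of 5563 nuclear ORFs, 5560 matched names of assembly R64, and 19 ORFs of the mitochondrial genome were left out.

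Counts were fitted with edgeR 4.0.16 (R 4.3.3) by quasi-likelihood tests, with TMM scaling within each library type, on genes whose reads summed to 128 or more in each library type of a comparison. TE was tested as the interaction of library type and strain. Adjustment covered all genes tested. DESeq2 1.42.0, median-ratio size factors, library size alone, no read minimum, a replicate block and leaving out each replicate with all its libraries were alternatives. The replicate block was the cell extract for TE, pairing its FP and total RNA, and the replicate number for FP and for total RNA. The scripts were tested on simulated data. Tables and figures used Python 3.11.15 with pandas 2.3.3, numpy 2.4.6, scipy 1.17.1 and matplotlib 3.10.9. FP and total RNA of a replicate came from the same cell extract, and their deviations from the group means correlated by 0.15 to 0.54. Mutant and WT replicates share only a number, and their deviations correlated by 0.0083 to 0.69.

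Every member could be named. Values in full were given for called members whose 2 replicates lay on the same side of the reference, the largest change first, up to 10 per comparison, and for up to 5 of 17 further genes of glycolysis and its regulation. Any other named member serves as a counterpart of these. The members and lists were chosen with earlier results of these data known.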

Additional observations from a re-analysis of the deposited data

Results flagged for a closer look

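The effect of asc1-M1X against WT differed between glycerol and glucose for the members below, by the interaction of strain and medium in edgeR (2 libraries per group, adjusted p under 0.05). Each value is the log2 effect on glycerol minus that on glucose. Medium, transfer and experiment cannot be told apart.

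Lower glycolysis held most of the positive values in FP: TDH1 1.584, TDH2 0.919, TDH3 0.7704, PGK1 1.117, GPM1 1.554, ENO1 1.38, ENO2 1.297 and CDC19 1.759. PYK2 was the exception at -1.446. In total RNA the same stretch had TDH1 1.92, TDH2 1.306, TDH3 1.035, PGK1 1.297, GPM1 1.522, ENO1 1.304 and CDC19 2.165, with PYK2 at -1.198.

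In upper glycolysis TPI1 passed in FP at 0.637. In total RNA TPI1 had 0.7144, PGI1 1.055, PFK1 0.6962 and PFK2 0.8303. HXK1, the glucose-repressed hexokinase, had -2.439 in FP and -1.796 in total RNA.

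Among the branch enzymes FP values were 0.9366 for PDC1, 2.021 for ADH1, 0.5919 for ADH5, 0.4865 for ALD5, -2.108 for ALD4 and 1.244 for GPP1. ADH1 is uncertain here, since its near-identical copy ADH2 rose on glycerol. Total RNA values were 1.372 for PDC1, 2.171 for ADH1, -1.716 for ALD4, 1.038 for ALD5, 0.8868 for GPD1, 0.7784 for GPD2, 0.7981 for GPP1 and -0.6745 for GPP2.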

How the results depend on the processing

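Of 5465 values of single members under the alternatives, 5077 kept their direction and side of the threshold, 387 kept the direction only, and 1 turned: TDH3 FP in rpl23bΔ with library size alone (log2 0.003031, adjusted p = 0.964). The 5465 values cover only members called in the main fit, so calls gained under an alternative are not among them. Library size alone moved the median of all genes by 0.142 in FP of asc1-M1X, 0.178 in rpl23bΔ and 0.174 in TE of WT between media. For TE the replicate block paired FP and total RNA of 1 extract, and otherwise it paired replicates by number only. The block gave TE counts of 21 members in asc1-M1X, 20 in asc1Δ, 13 in rpp1aΔ, 5 in asc1-M1X on glycerol and 7 for the interaction with medium. The block also gave 5 in FP and 5 in total RNA of asc1-D109Y, 2 in FP of asc1-DE and 11 for the RNA selection. It moved no other count by over 1.5 times. DESeq2 gave 3 in Ribo-Zero TE, 10 for the RNA selection and 1 in total RNA of rps16bΔ, as did library size alone. Leaving out 1 library gave 7 to 14 in TE of asc1-M1X, 4 to 7 of asc1Δ, 1 to 8 of rpl23bΔ, 1 of rpp1aΔ, 0 to 1 of rps16bΔ and 1 to 3 with Ribo-Zero; 2 to 4 in FP and 0 to 2 in total RNA of asc1-D109Y; 4 to 19 in FP and 0 to 15 in total RNA of rps16bΔ; 10 to 19 in FP and 10 to 23 in total RNA for the interaction with medium; and 1 to 14 for the RNA selection. Without ribosomal protein genes the mean FP shares of members were 16.59% in WT, 13.96% in asc1-M1X and 9.62% in asc1-M1X on glycerol, and the total RNA shares 9.537%, 7.458% and 4.688%, with 3.274% in WT on glycerol. The causes of these moves were not tested. Counts under an alternative stand without the share of all genes, so they do not show whether members moved more than other genes. Few reads kept PDC6 out of most tests. With 2 libraries per group, all tests rest on few pairs, whose spread is pooled over the groups of a fit and moderated across genes.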

Other observations

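Further genes of glycolysis and its regulation were followed beside the enzymes, 17 in all. In asc1-M1X on glucose 6 of 13 tested rose in FP and 1 fell (26.8% and 25.4% of all genes). GPM2, a paralog of phosphoglycerate mutase, rose by 2.12 on the log2 FP scale (4.36-fold, SE 0.1, adjusted p = 7.9e-09), ALD2, a cytosolic aldehyde dehydrogenase, by 1.19, PFK26, which makes fructose 2,6-bisphosphate, by 0.61, and EMI2, a paralog of GLK1, by 0.55. TYE7, a transcription activator of glycolytic genes, fell (log2 -0.43 in FP and -0.90 in total RNA), and its TE was higher by 0.47 (adjusted p = 0.0064) with poly(A) RNA. With Ribo-Zero RNA its TE change was 0.25 and not past the threshold (adjusted p = 0.246). On glycerol GPM2 (log2 1.66) and ALD2 (log2 1.92) were again higher in asc1-M1X, and 5 of 17 genes rose and 2 fell in FP (18.7% and 22.5% of all genes).

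In rpl23bΔ 6 of 13 of these genes fell in FP and 2 rose (24.8% and 24.6% of all genes). In rpp1aΔ 6 of 14 fell and 2 rose (20.4% and 21%). In rpl23bΔ the log2 FP changes of TYE7, EMI2 and GPM2 were -1.48, -1.40 and -1.23. In rps0bΔ 3 of 14 fell and 1 rose (11.1% and 8.57% of all genes), with GPM2 at -1.25, EMI2 at -0.92 and TYE7 at -0.85. In WT between media 11 of 17 rose and 5 fell in FP (41.5% and 36.9% of all genes). Among them were PFK26 (log2 2.30) and PFK27 (log2 -2.77), which both make fructose 2,6-bisphosphate.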
